A study of Rattus norvegicus with 40 samples.

Results

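Abundant messenger RNAs that were nearly restricted to the liver were examined in SHR rats lacking 1 copy of Tti2 and in their wild-type littermates. A transcript was counted as liver-restricted when its mean level over the 10 liver samples was at least 10 TPM, a level corrected for transcript length and library size, and at least 20 times its mean in each of soleus muscle, peritoneal fat and hippocampus, after 0.1 TPM had been added to every mean. Of 31715 quantified transcripts, 5544 reached the level in liver and 475 met both limits. The 200 of these with the highest liver mean are the members described here. Members were thus chosen by their mean TPM in the 4 tissues, and the levels and the tissue contrast are given as description only. The genotype of the rats played no direct part in the choice.

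The liver exports most plasma proteins and carries out much of the chemistry of amino acids, lipids, bile acids and foreign compounds. Transcripts for these tasks are typically made by hepatocytes at very high rates and are scarce in other organs, so that a short list of them can fill a large part of the messenger RNA of the tissue. Tti2 is a partner of Tti1 and Telo2 in a co-chaperone complex that helps newly made kinases of the PIKK family, among them mTOR, ATM and DNA-PKcs, to mature. Members are named by Ensembl transcript identifier, because none of the 31715 identifiers was found in the gene table used here and the deposited files do not pair them with gene symbols. For this reason the tissue label could not be set against hepatocyte markers, the Tti2 transcript was not looked up, functions are not given for single members, and no member's sequence is shown.

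Polyadenylated RNA was sequenced from 4 tissues of male SHR/OlaIpcv rats, with 5 SHR-Tti2+/- and 5 wild-type samples per tissue and 40 samples in all. The heterozygotes carry a small frameshift deletion in the first exon of Tti2, made by zinc-finger nuclease and kept as a single line, on the SHR background that the wild-type littermates share. Tissues were taken under ketamine anaesthesia and no treatment separated the groups. The age of the rats used for RNA is not given in the sources used here, and the fat depot is labelled peritoneal by the submitters but described as perirenal in the methods. Samples are called by genotype and by rat number. Rat numbers were given within each genotype, so that wild-type rat 1 and heterozygous rat 1 are different animals. The total estimated count per sample ran from 19176393 to 32713126 in the series and from 23868012 to 32318812 in liver.

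Among the members the liver mean ran from 186 to 76699 TPM, with a median of 587 TPM. There were 65 members at 1000 TPM or more and 10 at 10000 TPM or more. The most abundant, ENSRNOT00000003921.4, is 2069 bases long and stood at 77252 ± 3451 TPM in wild-type livers and 76145 ± 1424 TPM in heterozygous livers (SD, n = 5 each). It was followed by ENSRNOT00000090960.1 with a mean of 30095 TPM over the 10 livers, ENSRNOT00000046857.3 with 21421 TPM, ENSRNOT00000045628.5 with 21211 TPM and ENSRNOT00000042860.5 with 17631 TPM. The second of these is only 207 bases long, and its mean effective length in liver, by which TPM divides the counts, was 19.5 bases. Its high TPM rested on a mean of 13376 estimated counts, against 1029800 counts for ENSRNOT00000045628.5, which is 2324 bases long and lower in TPM. Member length ran from 87 to 14073 bases with a median of 1563 bases, beside 1672 bases for all quantified transcripts. There were 7 members shorter than 300 bases, with mean effective lengths in liver from 3.88 to 73.0 bases.

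**Figure D1:**
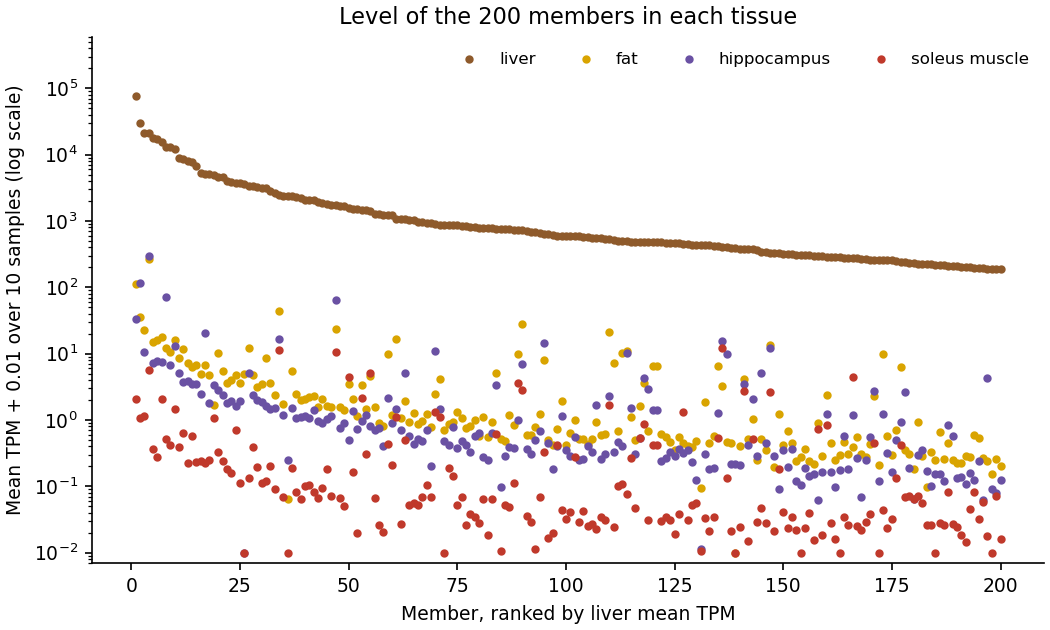
Mean TPM over 10 samples, with 0.01 TPM added, on a log scale for each of the 200 members in the 4 tissues, ordered by liver mean from rank 1 to rank 200; each point is 1 member in 1 tissue and points at 0.01 stand for a mean of 0. Fat and hippocampus points of the abundant members slope down with the liver level, and a scatter of members stands above that slope.

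Restriction to the liver was well beyond the limit for most members. The liver mean was between 24.8 and 7073 times the mean in the highest other tissue, with a median of 717 times, and 174 members were at 100 times or more. The highest other tissue was fat for 164 members, hippocampus for 32 and soleus muscle for 4. A mean of at least 1 TPM was nonetheless found outside the liver for 102 members and of at least 10 TPM for 26.

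The member closest to the ratio limit was ENSRNOT00000026585.5, with 332 TPM in liver, 13.3 TPM in fat and 12.2 TPM in hippocampus. An abundant transcript that stayed outside, ENSRNOT00000023984.6, had 1599 TPM in liver and 93.4 TPM in hippocampus, a ratio of 17.1. On the level scale the last member inside, ENSRNOT00000075378.2, and the first transcript outside, ENSRNOT00000015723.6, both had a liver mean of 186 TPM. The lower end of the list is thus a cut through a continuous range of levels. Another 354 transcripts were at least as abundant in liver as the last member but failed the ratio limit, and they serve below as transcripts of like abundance.

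The 200 members took up between 44.6% and 47.3% of the liver messenger RNA pool, measured as TPM, in every rat. Short members weigh more in this share than in the reads, because TPM divides counts by effective length. In wild-type livers the shares were 44.6%, 46.6%, 46.0%, 45.8% and 46.3% in rats 1, 2, 4, 5 and 6. In SHR-Tti2+/- livers they were 46.8%, 46.5%, 47.2%, 47.3% and 46.7% in rats 1, 2, 4, 5 and 6. Wild-type rat 1 was the lowest of all, and the groups overlapped only in that wild-type rat 2 lay above heterozygous rat 2. The means were 45.9% ± 0.769 in wild-type and 46.9% ± 0.322 in heterozygous livers (SD, n = 5 each). The 10 most abundant members alone took between 22.8% and 24.6% of TPM, as much as the other 190 together, which took between 21.8% and 23.2%.

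Counted as estimated reads, without correction for length, the members held 40.8% to 42.3% of the library in wild-type livers and 42.4% to 43.2% in heterozygous livers. On this scale the genotypes did not overlap, but only just, with 42.33% in wild-type rat 5 and 42.37% in heterozygous rat 6. A share is a sum over members chosen for their level, so no test was made of it. In bulk tissue, fewer cells of a type and less RNA per cell cannot be told apart.

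The study's question for these samples was how the loss of 1 Tti2 copy changes gene expression in each tissue. For the liver-restricted members the answer in liver was a single call. A transcript was called changed at an adjusted p under 0.1 and a change of at least 1.5-fold, where p came from the quasi-likelihood test of edgeR and the Benjamini-Hochberg adjustment ran over all 18423 transcripts tested in liver. All 200 members were tested. Of them 1 was called, higher in heterozygotes, which is 0.5% of the members, and 0.206% of all tested transcripts were called (0.103% higher and 0.103% lower). That 1 member reached the list only through its level in heterozygous rats. With tissue means from wild-type rats only, 0 of 200 were called, so the 0.5% cannot be read as a result about the members. Without the fold limit 2 members passed, both higher, against 0.217% of all tested transcripts in that direction.

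The called member was ENSRNOT00000018795.3, which is 1268 bases long and ranked 175 by liver mean. In CPM, the estimated counts scaled to library size with edgeR's TMM factors and not corrected for length, its level in wild-type rats 1, 2, 4, 5 and 6 was 109, 120, 129, 154 and 118 CPM. In SHR-Tti2+/- rats 1, 2, 4, 5 and 6 it was 256, 294, 583, 454 and 423 CPM. Every heterozygote was above every wild-type rat, and the heterozygotes were spread more widely, with rats 1 and 2 lowest and rat 4 highest. The log2 fold change was 1.67 with a standard error of 0.205 and an edgeR adjusted p of 0.0305. The two-sided exact permutation p was 0.0079, the smallest that 5 against 5 can give. Any transcript whose groups do not overlap reaches this p, ENSRNOT00000086919.1 below among them. The called member was named for its small edgeR p, so the exact p is not separate support.

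The place of ENSRNOT00000018795.3 among the members rested on the heterozygous rats. Its liver mean was 124 ± 14.5 TPM in wild-type and 384 ± 115 TPM in heterozygous rats (SD, n = 5 each), so that by its wild-type level alone it would lie below the last member at 186 TPM. When the tissue means were taken from wild-type rats only, 198 of the 200 members stayed, and this transcript and ENSRNOT00000022307.4 (180 TPM in wild-type and 207 TPM in heterozygous livers) dropped out. No member of that list was called by edgeR. An unadjusted edgeR p under 0.05 was found for 49 of its 200 members, against 10.1% of all tested transcripts. Outside the liver ENSRNOT00000018795.3 was nearly absent from the libraries. Its highest level there was 1.42 TPM, from 22 counts, in the hippocampus of heterozygous rat 5, and in fat the highest was 0.980 TPM, from 23 counts, again in heterozygous rat 5.

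The second smallest p belonged to ENSRNOT00000086919.1, which is 1183 bases long. Its liver level was 249, 253, 233, 234 and 237 CPM in wild-type rats 1, 2, 4, 5 and 6 and 277, 266, 290, 281 and 274 CPM in heterozygous rats 1, 2, 4, 5 and 6. The groups did not overlap and both were tight, with an SD of 9.0 CPM in wild-type and 9.06 CPM in heterozygous rats. The log2 fold change of 0.20 (standard error 0.0388) was below the fold limit, with an edgeR adjusted p of 0.0892. Under the alternative settings that adjusted p ran from 1.8e-05 to 0.230.

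No member was called lower in heterozygotes. The lower member with the smallest p, ENSRNOT00000019023.5, had 4229, 3925, 4003, 4107 and 3745 CPM in wild-type rats 1, 2, 4, 5 and 6 and 3813, 3752, 3685, 3919 and 3540 CPM in heterozygous rats 1, 2, 4, 5 and 6. The ranges overlapped, and the log2 fold change of -0.097 (standard error 0.0405) had an edgeR adjusted p of 0.46. The next, ENSRNOT00000028033.6, had a log2 fold change of -0.51 with a standard error of 0.237 and an edgeR adjusted p of 0.506. Its levels were 867, 549, 699, 1047 and 492 CPM in the wild-type and 708, 496, 571, 323 and 463 CPM in the heterozygous rats 1, 2, 4, 5 and 6. Heterozygous rats 5 and 6 lay below the wild-type range and the other 3 inside it.

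**Figure D2:**
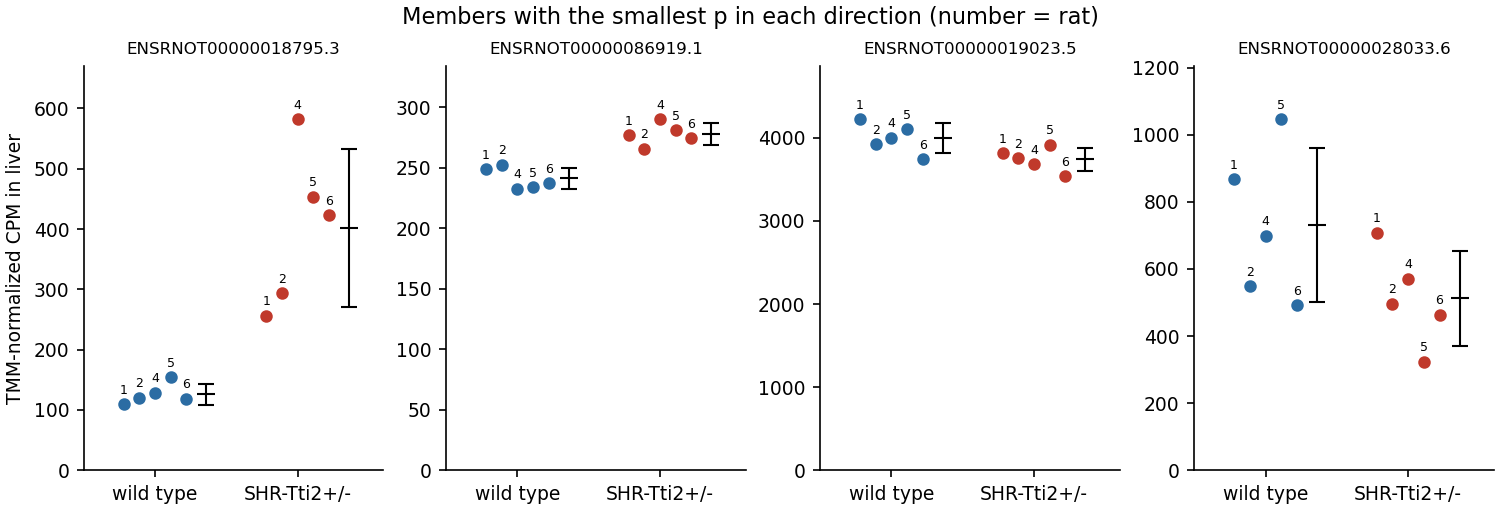
TMM-normalized CPM in liver for the members with the smallest p in each direction, 1 panel per member; points are rats with their numbers, wild type in blue and SHR-Tti2+/- in red, and the bar beside each group is the mean ± SD over 5 rats. Groups are separate for ENSRNOT00000018795.3 and ENSRNOT00000086919.1 and overlap for the other two.

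Small differences of the same sign were common below the threshold. Of the 200 members, 166 had a log2 fold change above 0 (83.0%), against 50.2% of all tested transcripts. The median log2 fold change was 0.083 over the members and 0.00098 over all tested transcripts. It was 0.011 over the 354 transcripts of like abundance, of which 202 were above 0, and 0.066 over the other 275 transcripts that met the limits at lower levels, of which 195 of the 273 tested were above 0. The median hardly depended on rank within the list, at 0.092 for ranks 1 to 10, 0.086 for ranks 11 to 65 and 0.077 for ranks 66 to 200. Most single differences were very small. An absolute log2 fold change under 0.2 was found for 182 members, and 199 were below the 1.5-fold limit.

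An unadjusted p under 0.05 was reached by 51 members, 50 of them higher and 1 lower in heterozygotes. That is 25.5% of the members, against 10.1% of all tested transcripts (5.2% higher and 4.9% lower). Of the 273 further liver-restricted transcripts tested, 55 reached it, 48 higher and 7 lower. Of the 354 transcripts of like abundance, 36 did, 26 higher and 10 lower. In 9 members (4.5%) all heterozygotes were above all wild-type rats in TMM-scaled CPM, against 1.28% of all tested transcripts. In 0 members were they all below, against 1.28%. Of these 9, the called member and ENSRNOT00000086919.1 are described above. The other 7 had log2 fold changes from 0.087 to 0.14 with edgeR adjusted p from 0.284 to 0.440. In TPM the genotypes overlapped in each of those 7, while the called member and ENSRNOT00000086919.1 stayed without overlap. The share of all tested transcripts was counted in CPM only. Members share the same 10 livers and many vary together, so these counts are not independent evidence from 200 transcripts.

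The same shift was visible rat by rat. The median deviation of the members from their mean over the 10 livers was -0.092, -0.018, -0.034, -0.010 and -0.038 on the log2 CPM scale in wild-type rats 1, 2, 4, 5 and 6. In heterozygous rats 1, 2, 4, 5 and 6 it was 0.017, 0.018, 0.090, 0.062 and 0.019. The genotypes did not overlap. Wild-type rat 1 and heterozygous rat 4 stood furthest out, the first being lowest of all rats in 67 members and the second highest in 81.

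The size of the shift depended on the scaling. With library totals in place of TMM factors the members' median was 0.049 and that of all tested transcripts -0.033, and 144 members were above 0. An unadjusted edgeR p under 0.05 was then reached by 21 of 200 members, 16 of them higher, and by 1905 of 18423 tested transcripts. On that scaling the members' share was close to the share of all tested transcripts. TMM factors were 1.03, 1.02, 1.00, 0.991 and 1.01 in wild-type rats 1, 2, 4, 5 and 6 and between 0.972 and 0.995 in heterozygous rats. In TPM the median deviations of wild-type rats ran from -0.048 to 0.0087 and those of heterozygous rats from 0.00088 to 0.036, with wild-type rat 2 above heterozygous rat 4. Without heterozygous rat 5 the number of members with an unadjusted p under 0.05 fell to 24 of 200, against 1568 of 18190 tested transcripts. Without wild-type rat 1 it fell to 29 of 200, against 1581 of 18165. The median stayed between 0.064 and 0.093 with each liver left out in turn.

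**Figure D3:**
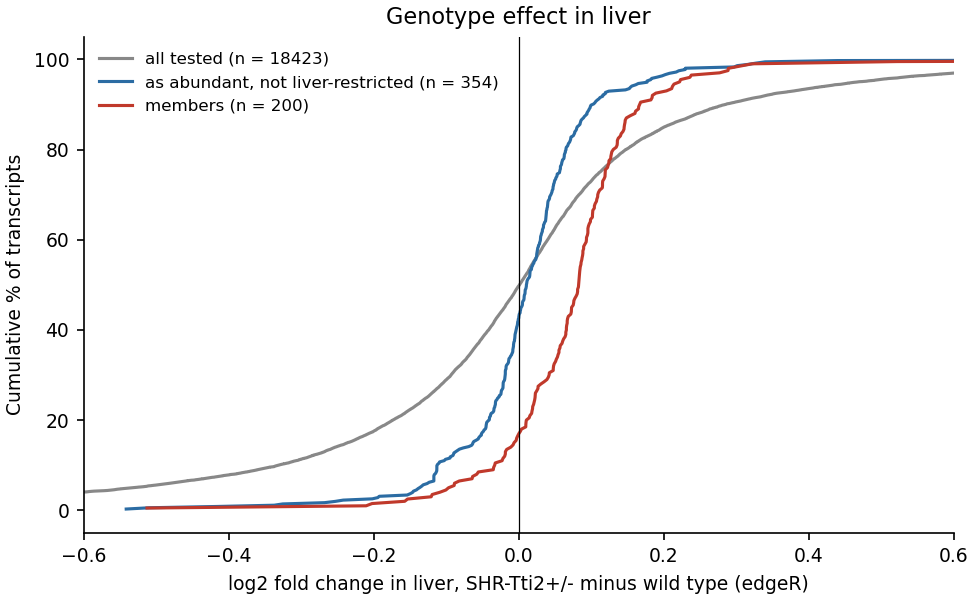
Cumulative percent of transcripts against the log2 fold change in liver (SHR-Tti2+/- minus wild type, edgeR with TMM), for the 200 members, the 354 transcripts of like abundance that were not liver-restricted, and all 18423 tested; the axis is cut at 0.6 on either side, outside which the called member and further transcripts lie. The curve of the members runs to the right of the curve of like abundance over most of its range.

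The 5 most abundant members showed no called difference between the genotypes. ENSRNOT00000003921.4 had 89228, 91510, 100850, 100170 and 96394 CPM in wild-type rats 1, 2, 4, 5 and 6 and 97257, 94313, 101840, 96540 and 95825 CPM in heterozygous rats 1, 2, 4, 5 and 6. The ranges overlapped. Its log2 fold change of 0.023 (standard error 0.0388, edgeR adjusted p = 0.907) became -0.010 with library totals. ENSRNOT00000046857.3 had the widest difference of the 5, with a log2 fold change of 0.12, a standard error of 0.0475 and an edgeR adjusted p of 0.458. It stood at 10098 ± 424 CPM in wild-type and 10941 ± 694 CPM in heterozygous livers (SD, n = 5 each).

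Among the 275 transcripts that met the same limits at lower levels, 1 was called, in the opposite direction. ENSRNOT00000076390.1, which is 624 bases long and has a liver mean of 14.1 TPM, stood at 11.9, 8.22, 11.1, 20.5 and 5.68 CPM in wild-type rats 1, 2, 4, 5 and 6. In heterozygous rats 1, 2, 4, 5 and 6 it stood at 2.08, 1.76, 2.27, 2.77 and 2.47 CPM. The groups did not overlap, with a log2 fold change of -2.34, a standard error of 0.311 and an edgeR adjusted p of 0.0305. This transcript was chosen after its values were seen. It met the level limit of 10 TPM only through the wild-type rats, with 23.6 ± 11.3 TPM against 4.55 ± 0.773 TPM in heterozygotes (SD, n = 5 each), so that its call is a description of a transcript kept for its wild-type level.

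Rat-to-rat variation was measured as the SD of log2 (CPM + 1) around the genotype means, pooled over both genotypes with 8 degrees of freedom. Over the members its median was 0.099, from 0.030 to 0.535. Transcripts of like abundance that were not liver-restricted had a median SD of 0.091, the further 275 liver-restricted transcripts 0.158, and all tested transcripts 0.156. Counting error was small beside this spread, since the mean estimated count of a member had a median of 16963 and the counting CV a median of 0.768%, with a highest value of 5.58%. An SD over 0.2 was found in 24 members (12.0%), against 8.47% of the transcripts of like abundance, and an SD under 0.1 in 102 members (51%), against 61.0%.

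The member that varied most was ENSRNOT00000022721.4, with an SD of 0.535. It stood at 428, 636, 756, 879 and 363 CPM in wild-type rats 1, 2, 4, 5 and 6 and at 288, 533, 699, 688 and 439 CPM in heterozygous rats 1, 2, 4, 5 and 6. High and low rats occurred in both genotypes, and the highest liver held 3.06 times the lowest. ENSRNOT00000028033.6, shown above, came next with an SD of 0.434 and a highest-to-lowest ratio of 3.24.

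ENSRNOT00000041367.4 had an SD of 0.413. Its levels were 394, 826, 311, 374 and 508 CPM in wild-type rats 1, 2, 4, 5 and 6 and 360, 518, 411, 479 and 395 CPM in heterozygous rats 1, 2, 4, 5 and 6. Wild-type rat 2 was far above the others, and the sign of the genotype difference (log2 fold change -0.16, edgeR adjusted p = 0.889) turned without it, to 0.13.

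The short transcript ENSRNOT00000076466.1, of 309 bases, had an SD of 0.406. It ran from 69.6 CPM in wild-type rat 4 to 159 CPM in wild-type rat 6, and from 84.3 CPM in heterozygous rat 1 to 167 CPM in heterozygous rat 5. ENSRNOT00000040325.5 had an SD of 0.400 and ran from 932 CPM in wild-type rat 4 to 1931 CPM in wild-type rat 2, with heterozygous rats between 962 and 1708 CPM. The genotype ranges overlapped for both, and neither was called (edgeR adjusted p = 0.688 and 0.939).

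At the other end, ENSRNOT00000051751.3 had an SD of 0.030 and stood between 1161 and 1271 CPM in all 10 livers. ENSRNOT00000003748.7 had an SD of 0.037. It stood between 1568 and 1682 CPM in wild-type and between 1707 and 1811 CPM in heterozygous rats. On this scale a log2 fold change of only 0.093 left the groups without overlap. In TPM the groups overlapped, with 782 TPM in heterozygous rat 4 and 790 to 826 TPM in wild-type rats. The edgeR adjusted p of ENSRNOT00000003748.7 was 0.332.

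**Figure D4:**
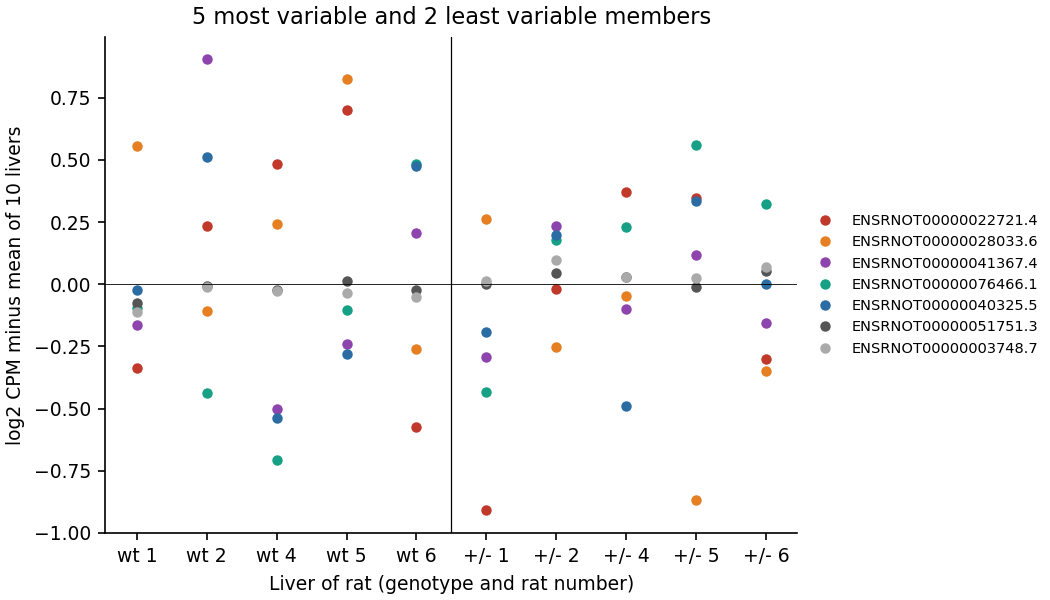
Log2 CPM minus the mean of the 10 livers for the 5 most variable and the 2 least variable members, with 1 column per rat, wild type left of the vertical line and SHR-Tti2+/- right of it; each point is 1 member in 1 liver. The variable members are high in different rats, ENSRNOT00000041367.4 in wild-type rat 2 and ENSRNOT00000022721.4 in wild-type rat 5, and the least variable ones (grey) stay near 0.

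The deviations of the members from their genotype means were compared over the 10 livers. Across 19900 pairs of members the median Pearson r was 0.11, below the median of 0.29 over 62481 pairs of transcripts of like abundance. Pairs share the same libraries and scaling, and no test was made. An r above 0.9 was found in 100 pairs of members (0.503%), against 1.04% of the pairs of like abundance, and an r below -0.9 in 8 (0.040%), against 0.058%. Links with r above 0.9 joined 84 members into 17 groups. A group is a chain of such links, so that members of the same group can have a lower r with each other.

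The biggest group held 18 members with liver means between 203 and 3723 TPM, and its lowest r between members was 0.39. Wild-type rat 2 and heterozygous rat 2 were highest relative to their genotype mean, on average by 0.24 and 0.18 on the log2 scale. In 16 of the 18 members these were the highest deviations of all. The most variable member of the group was ENSRNOT00000090763.1. It had 147, 292, 174, 165 and 160 CPM in wild-type rats 1, 2, 4, 5 and 6 and 227, 300, 182, 228 and 207 CPM in heterozygous rats 1, 2, 4, 5 and 6.

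A further group of 12 members moved the other way in the same animals. Heterozygous rat 2 was the lowest of the 10 livers relative to its genotype mean in 11 of the 12, and heterozygous rat 4 the highest in 9. A group of 10 members, among them the third most abundant, ENSRNOT00000046857.3, had heterozygous rat 2 lowest in all 10. The first principal component of the members' deviations held 32.6% of their variance and set wild-type rat 2 (loading 0.52) and heterozygous rat 2 (0.55) against heterozygous rat 4 (-0.53). Equal numbers do not mark shared animals, and what these livers had in common was not tested.

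The called member lay in a group of 11 that also held the most variable member, ENSRNOT00000022721.4. Both had only 1 r above 0.9, each with a different member, and the lowest r within the group was 0.51. Within this group heterozygous rat 4 was the highest relative to its genotype mean in 10 of 11 members. The pattern most like that of ENSRNOT00000018795.3 was shown by ENSRNOT00000088211.1, with r = 0.92 over 10 livers after the genotype means were removed. For the variable members ENSRNOT00000022721.4, ENSRNOT00000041367.4 and ENSRNOT00000040325.5 the highest r with another member was 0.91, 0.92 and 0.91. For ENSRNOT00000028033.6 and ENSRNOT00000076466.1 no other member exceeded 0.9, the nearest having r = 0.87 and 0.77.

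Opposite pairs were chosen for display after their values were seen. ENSRNOT00000047655.5 and ENSRNOT00000012500.7 had r = -0.95, the lowest of all pairs. The first had 330, 342, 353, 355 and 386 CPM in wild-type and 389, 324, 400, 347 and 370 CPM in heterozygous rats 1, 2, 4, 5 and 6. The second had 256, 255, 246, 260 and 221 CPM and 225, 287, 221, 270 and 243 CPM in the same order. Where one was high the other was mostly low, though in wild-type rat 5 both were among the higher values of their genotype. Their sum varied much less, with an SD of 0.020 against 0.105 and 0.134 for the parts. Likewise ENSRNOT00000076464.2 and ENSRNOT00000088449.1 (r = -0.90) had an SD of 0.097 and 0.046 and their sum an SD of 0.015. How kallisto divided reads between the transcripts of such a pair was not tested.

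At the other extreme, the estimated counts of ENSRNOT00000032536.4 and ENSRNOT00000064029.3, both of 504 bases, were identical in every liver. They therefore carry 1 measurement between them, and the 200 members give 199 distinct profiles.

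Outside the liver the members were scarce. They made up 0.064% to 0.207% of TPM in fat, 0.057% to 0.264% in hippocampus and 0.0073% to 0.0149% in soleus muscle. The filter on low counts left 167 members tested in fat, 75 in hippocampus and 48 in soleus muscle. By edgeR 0 of these were called in any of the 3 tissues, where 0.0% of all tested transcripts were called in fat, 0.00483% in hippocampus and 0.00552% in soleus muscle. An unadjusted p under 0.05 was reached by 2 of 167 members in fat, against 6.96% of all tested transcripts, by 29 of 75 in hippocampus, against 4.22%, and by 1 of 48 in soleus muscle, against 6.84%. In hippocampus that count depended on the tool, with 6 of 75 members by DESeq2, against 4.14% of all tested transcripts, and 9 of 75 by limma, against 4.26%. DESeq2 called 0 members in hippocampus and in soleus muscle and 1 in fat, where it called 0.0531%, 0.221% and 0.0989% of all tested transcripts. By limma 0 members were called in each of these tissues, against 0.00966% of all tested transcripts in hippocampus, 0.00552% in soleus muscle and 0.0% in fat.

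The member called by DESeq2 in fat was ENSRNOT00000002699.5. In fat it stood at 4.12, 3.99, 3.44, 2.63 and 4.54 CPM in wild-type rats 1 to 5 and at 4.49, 6.30, 5.97, 9.41 and 7.47 CPM in heterozygous rats 1 to 5. Heterozygous rat 1 lay within the wild-type range and the other 4 above it. The log2 fold change was 0.85 with a DESeq2 adjusted p of 0.0582, but the edgeR adjusted p was 0.684.

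A single hippocampus stood apart from the rest. In the hippocampus of heterozygous rat 5, 190 members had at least 5 estimated counts, against 57 to 90 in the other 9 hippocampi. The members summed to 2639 TPM there, against 567 to 1519 TPM, and the median member stood at 0.488% of its mean liver level, against 0.020% or less. The 275 further liver-restricted transcripts, which are not members, behaved alike, 173 of them reaching 5 counts in this sample and 70 to 98 in the others.

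The fat of heterozygous rat 5 was also highest in its tissue. There 190 members had at least 5 counts, against 88 to 183 in the other fat samples, the members summed to 2074 TPM, against 645 to 1489 TPM, and the median member stood at 0.365% of its mean liver level, against 0.012% to 0.223%. Fat samples varied gradually, and wild-type rat 1 was the nearest with 183 members and 1489 TPM. In the soleus muscle of heterozygous rat 5 only 37 members reached 5 counts, the lowest number in that tissue.

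Genotype differences of the members in hippocampus and fat changed when these samples were left out. In hippocampus the median log2 fold change of the 75 tested members was 0.95 by edgeR and 0.54 by limma, with 67 above 0 by either, against 50.1% of all tested transcripts by edgeR. Without heterozygous rat 5 it was 0.12 over 66 tested members, with 39 above 0. An unadjusted edgeR p under 0.05 was then reached by 7 of 66 members in place of 29 of 75, against 760 of 20539 tested transcripts. The number of such members was between 16 and 18 with any 1 wild-type rat left out. In fat the median log2 fold change was 0.41 over 167 members, with 145 above 0, against 49.0%. Without heterozygous rat 5 it was -0.15 over 150 members, with 40 above 0. Other fat samples mattered too, since the median was 0.96 without wild-type rat 1, 0.21 without wild-type rat 2 and 0.24 without wild-type rat 5. In soleus muscle the median was -0.031 and 23 of 48 members were above 0, against 49.0%, and with each sample left out in turn the median ran from -0.15 to 0.078, with 16 to 27 members above 0. The source of the additional counts in heterozygous rat 5 was not tested. Leaving these 2 samples out of the tissue means changed none of the 200 members.

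**Figure D5:**
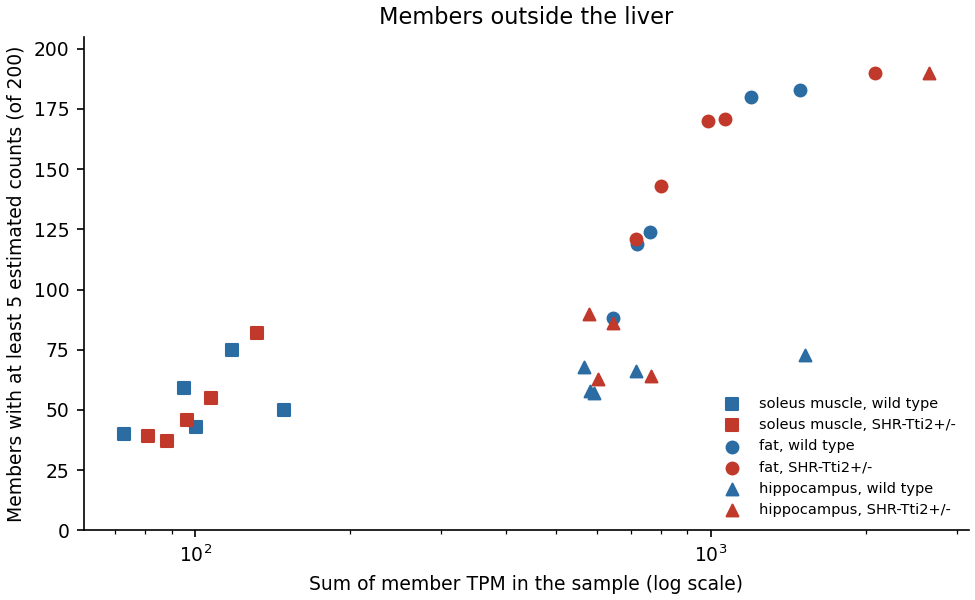
Number of the 200 members with at least 5 estimated counts against the sum of member TPM (log scale) in each of the 30 samples of soleus muscle, fat and hippocampus; squares, circles and triangles mark the tissues, blue the wild type and red SHR-Tti2+/-. The fat and the hippocampus of heterozygous rat 5 lie at the top right with 190 members each, while wild-type rat 2's hippocampus has a high sum, 1519 TPM, with only 73 members.

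The member with the highest mean outside the liver was ENSRNOT00000045628.5, the fourth most abundant in liver. It had a mean of 297 TPM in hippocampus, 271 TPM in fat and 5.61 TPM in soleus muscle. In hippocampus it stood at 180, 609, 327, 222 and 211 TPM in wild-type rats 1, 2, 3, 5 and 6 and at 374, 238, 177, 288 and 341 TPM in heterozygous rats 1 to 5. It was present at over 100 TPM in all 10 hippocampi, including that of wild-type rat 5, where 98 members had 0 counts, and heterozygous rat 5 was not the highest. In the hippocampus of wild-type rat 2 it alone gave 40.1% of the members' sum.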

How the data were processed

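Libraries were directional, poly(A)-selected and sequenced as single-end reads. The authors quantified them with kallisto against Ensembl cDNA and deposited, per sample and transcript, an estimated count, a TPM value, the length and an effective length; the submitters' processing notes give kallisto 0.46.0 and build rn6, and further settings are not repeated here. The deposited length columns were used only to describe members. For each tissue the authors sequenced the samples with the best RNA of each genotype. Their removal of 1 hippocampus sample is described in the methods, and all 40 samples with files were used here.

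Tissue means of the deposited TPM gave the members. Estimated counts were rounded and tested per tissue (10 samples, genotype as the single term) with edgeR 4.0.16 (R 4.3.3), TMM factors and a filter of at least 5 counts in at least 47% of samples. Calls needed a Benjamini-Hochberg adjusted p under 0.1 and a 1.5-fold change. Standard errors beside edgeR fold changes are the absolute log2 fold change divided by the square root of the F statistic. The authors tested with sleuth, which was not used here. DESeq2 1.42.0, limma 3.58.1, other scalings, filters and rules, a replicate block and each sample left out were alternatives. Scripts were tested on simulated counts. The exact permutation test is two-sided over 252 assignments. Single transcripts were named by rule: the 5 highest in liver, the 2 smallest p in each direction, the 5 largest and 2 smallest SDs, those at the limits, and the highest outside the liver. Others were chosen after their values were seen, as were all correlations shown by name. Members and lists were chosen with earlier results of these data known. The gene lists and cell markers intended for this work were not applied, because no symbols could be matched. Counting errors cover counting only, and transcripts that share sequence share reads. Per the labels each sample of a tissue came from a different rat. As a check for a library present more than once, livers of a genotype were compared pairwise, and none agreed within counting noise (lowest chi-square per degree of freedom 10.7).

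In liver, same-numbered rats of the 2 genotypes had correlations of deviations between 0.0027 and 0.100, and the numbers were taken as names only.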

Additional observations from a re-analysis of the deposited data

Results flagged for a closer look

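Of 48 sets of 5 values examined for a sample standing apart, 5 had an extreme value whose gap to its neighbour, divided by the range, exceeded 0.71, the 95% limit of Dixon for sets of this size. By chance about 1 set in 20, or 2.4 sets, would do so. In the hippocampus of SHR-Tti2+/- rats the member TPM sum was 2639 in rat 5 and at most 763 in the others (ratio 0.911), and the number of members with at least 5 counts was 190 in rat 5 and at most 90 in the others (ratio 0.787). In the fat of SHR-Tti2+/- rats the sum was 2074 TPM in rat 5 and at most 1063 TPM in the others (ratio 0.744). In the hippocampus of wild-type rats the sum was 1519 TPM in rat 2 and at most 715 TPM in the others (ratio 0.845). In liver, ENSRNOT00000075378.2, the last member by level, stood at 218 CPM in heterozygous rat 1 and at 239 to 244 CPM in the other heterozygotes (ratio 0.820). The causes were not tested.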

How the results depend on the processing

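ENSRNOT00000018795.3 was called under all 17 alternatives of the test, with log2 fold changes from 1.5 to 1.80 and adjusted p up to 0.0836. The count of called members in liver was 1 under each alternative except with no fold-change limit (2), over all 473 tested transcripts meeting the limits (2) and with tissue means from wild-type rats only (0). Outside the liver it was 0 except for 1 in fat by DESeq2. Over all transcripts the liver calls numbered 38 by edgeR, 119 by DESeq2, 64 with at least 10 counts in every sample, 18 at an adjusted p under 0.05, 77 with no fold limit and from 11 to 57 with 1 liver left out. With the replicate number as a block, 1 member was called in liver and 0 elsewhere, and 11 transcripts in all in liver, but the numbers did not pair the rats, and not every liver was most like the one of its own number. The median log2 fold change of the members in liver, an addition made after seeing the data like the leave-one-out medians, was 0.049 with library totals and from 0.064 to 0.093 with 1 liver left out. With 1 sample left out it ran from -0.15 to 0.96 in fat and from 0.12 to 1.04 in hippocampus. As a share of estimated counts the members held 41.9% in wild-type and 42.8% in heterozygous livers, and without the 10 most abundant 22.3% and 22.9% of TPM. Signs turned for ENSRNOT00000003921.4 (-0.010 with library totals, and from -0.00087, without wild-type rat 1, to 0.045 with 1 liver left out), ENSRNOT00000041367.4 (from -0.28 to 0.13, the latter without wild-type rat 2) and ENSRNOT00000040325.5 (from -0.21 to 0.042, above 0 without wild-type rat 2, wild-type rat 6 or heterozygous rat 4), and none of these was called. The causes were not tested. Low counts outside the liver limit the comparison of most members in hippocampus and soleus muscle, where 75 and 48 of 200 could be tested.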
